A study of Mus musculus with 6 samples.

Results

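A run of 129 probes, from ASMM10P045876 to ASMM10P046014, was followed on arrays of hippocampal RNA from offspring of nicotine-drinking and vehicle-drinking dams. The array holds 60915 non-control probes, and 10 numbers within the run have no probe. The run was selected on the nicotine minus vehicle differences of the same 6 arrays, so these differences are given as a description, without a test. A probe is called detected on an array where the scanner software marked its spot as well above the background. Of the 129 probes, 63 were detected on the 3 arrays of one group or of both and were compared, and 66 were not. The run did not rise as a whole. Of the 63 compared probes, 15 were 1.5-fold or more higher in nicotine offspring, 1 was 1.5-fold or more lower, and 47 lay between. Over all compared probes of the array, 3.98% were 1.5-fold or more higher and 3.31% were 1.5-fold or more lower. Of the 15 higher probes of the run, 10 were detected in every nicotine sample and in no vehicle sample, and are called nicotine-only below. This pattern was found in 0.0993% of all compared probes of the array.

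Each array measured the hippocampus of C57BL/6 offspring at postnatal day 20. Vehicle offspring (3 arrays) came from dams that drank 1% saccharin, and nicotine offspring (3 arrays) from dams that drank 200 μg/ml nicotine in saccharin solution, from before mating until weaning. Both groups therefore shared the saccharin, and by the labels they differ in the nicotine given to the dam. The study's methods state equal numbers of males and females, but the labels give neither the sex nor the litter behind an array. A difference in sex or litter between the 3 nicotine and the 3 vehicle arrays therefore cannot be told apart from the treatment, in the nicotine-only probes and in every other difference given here. The study lists n = 3 per group for the microarray among its sample sizes. The labels do not say that arrays of a group came from separate animals, so the spread between them may be partly technical. Of the 15 reference probes, which are the ones paired with genes in the files, none lies in the run, so its probes are given by ID, and the labelled tissue and sex-linked transcripts were not checked against marker genes here.

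Nicotine acts on nicotinic acetylcholine receptors, which are ligand-gated ion channels found on hippocampal neurons and also on glia. It crosses the placenta and passes into milk, so pups are exposed while hippocampal circuits are still forming. The array carries long oligonucleotides against messenger RNAs and long non-coding RNAs, and the number in a probe ID is the array maker's. A probe whose target is absent from a sample returns a signal close to the array's own background, which here acts as a floor.

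Signals are given on the log2 scale, relative to the 75th percentile of non-control spots on the same array, so a value of 0 is the level of that percentile. The 75th percentile itself was 291 to 345 intensity units on the 4 arrays of slide 1 and 148 and 150.0 on the 2 arrays of slide 2, which held vehicle replicate 3 and nicotine replicate 1. The lowest signal of a detected probe was between -4.26 and -4.00 on slide 1 and was -2.62 and -2.75 on slide 2. Between 48.4% and 66.4% of spots were detected, 0 spots were saturated, and no spot of the run was left out as an outlier.

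On the vehicle arrays, fewer probes of the run than of the whole array stood clear of background. In vehicle replicates 1 and 2, 66 of the 129 probes (51.2%) were detected, against 63.5% and 63.0% of all probes. In vehicle replicate 3 it was 48 probes (37.2%), against 48.2% of all probes. On the nicotine arrays the shares were close: 62 probes (48.1%) against 48.7% in replicate 1, 81 (62.8%) against 63.1% in replicate 2 and 83 (64.3%) against 66.2% in replicate 3. The 15 probes 1.5-fold or more higher in nicotine offspring are part of these counts. Vehicle replicates 1, 2 and 3 detected 5, 5 and 2 of them, and each nicotine array detected all 15. The run was chosen on this contrast, so the lower vehicle shares are no separate trait of it. In RNA of whole tissue, more cells that carry a transcript and more transcript per cell cannot be told apart.

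ASMM10P045914, the nicotine-only probe with the largest bound, read 3.58, 3.22 and 3.82 in nicotine replicates 1, 2 and 3, and -5.93, -6.34 and -4.94 in vehicle replicates 1, 2 and 3. As intensities after background subtraction, these were 1791, 3221 and 4771 units on the nicotine arrays and 5.63, 3.59 and 4.82 units on the vehicle arrays. All nicotine arrays were thus far above the percentile used for scaling and all vehicle arrays at the floor, so the fold change is a lower bound. It was at least 138-fold, setting the mean of the nicotine arrays, 3.54 ± 0.30 (SD, n = 3), against the dimmest detected signal of each vehicle array, or the probe's own signal where that was higher. This bound, 7.11 on the log2 scale, holds for the deposited background-subtracted signals: with normexp background correction and an offset of 50 units added to every signal, the measured difference of ASMM10P045914 was 5.59. In all 10 nicotine-only probes the normexp difference was below the bound given here. The added offset by itself makes differences from dim signals smaller, and no bound was computed anew with normexp. The bounds are therefore given for the deposited signals alone.

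ASMM10P045976 read 1.91, 2.08 and 2.70 in nicotine offspring and -6.06, -6.22 and -4.92 in vehicle offspring, at least 55.6-fold higher. Its neighbour in number, ASMM10P045975, read 0.02, -0.24 and 0.56 in nicotine offspring and -6.08, -6.23 and -4.93 in vehicle offspring, at least 12.8-fold higher. ASMM10P045970 had a nicotine mean of -1.13 ± 0.20 (SD, n = 3) and read -4.98, -5.35 and -4.95 in vehicle offspring, at least 5.42-fold higher. In each of these 3 probes the lowest nicotine array read more than 3 log2 units above the highest vehicle array. The vehicle signals were undetected, so this is a distance between readings and not a bound on the change.

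The other 6 of the 10 had nicotine signals close to what slide 2 could resolve, so their bounds are small. ASMM10P045969 had a nicotine mean of -1.91 ± 0.22 (SD, n = 3) and was at least 3.14-fold higher. ASMM10P045989 read -1.95, -1.98 and -2.07 in nicotine offspring and was at least 2.97-fold higher. ASMM10P045993, at -2.03 ± 0.08 (SD, n = 3), was at least 2.90-fold higher. Replicate spread in these probes was narrow, and the highest vehicle signal of any nicotine-only probe was -4.90. ASMM10P045960, at -2.06 ± 0.21 (SD, n = 3), was at least 2.84-fold higher. ASMM10P045962, at -2.14 ± 0.09 (SD, n = 3), was at least 2.69-fold higher. The smallest bound, 2.15-fold, was that of ASMM10P045965, at -2.46 ± 0.16 (SD, n = 3). Before background subtraction, the median pixel signal of the 10 probes was 16 to 39 units on vehicle arrays and 52 to 4946 units on nicotine arrays, with a local background of 13 to 26 units.

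The nicotine-only pattern was found in 30 of the 30197 probes compared on the array (0.0993%), and the run held 10 of these 30. The lower bound of the rise reached 8-fold in 3 of the 10 within the run and in 1 of the 20 outside it. The reverse, vehicle-only pattern was found in 7 probes of the array and in 0 of the run. Since the run was chosen for this contrast, these shares describe it and are no test of it.

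Of the 5 further probes that were 1.5-fold or more higher, all named after their values were seen, 3 were detected everywhere except in vehicle replicate 3, on slide 2. ASMM10P046001 read -0.63, -0.26 and -0.30 in nicotine offspring and -3.16, -3.01 and -4.88 in vehicle offspring, a difference of 3.29 on the log2 scale. ASMM10P045997 read -0.85, -0.43 and -0.53 in nicotine offspring and -3.45, -2.90 and -4.73 in vehicle offspring, a difference of 3.09. ASMM10P045933 read -1.01, -0.59 and -0.65 in nicotine offspring and -2.65, -2.62 and -4.94 in vehicle offspring, a difference of 2.66. These 3 probes were therefore measured in vehicle offspring of slide 1 too, at a lower level. On slide 1 alone, where both sides were measured, their differences were 2.81, 2.69 and 2.02. With normexp and its offset the differences over all arrays were 1.55 in ASMM10P046001, 1.42 in ASMM10P045997 and 1.16 in ASMM10P045933. The background correction and the offset were not tried apart, so their shares in this smaller size cannot be told apart.

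The remaining 2 were detected on all 6 arrays and differed less. ASMM10P045911 read 0.20, -0.23 and -0.19 in nicotine offspring and -0.82, -1.62 and -0.29 in vehicle offspring, a difference of 0.84, of which vehicle replicate 2 was the lowest value. ASMM10P045935 read -0.50, -0.49 and -0.82 in nicotine offspring and -1.35, -1.34 and -0.97 in vehicle offspring, a difference of 0.62. In both, the groups did not overlap, and vehicle replicate 3 was the vehicle array closest to the nicotine arrays. Both calls at 1.5-fold rested on single arrays and were lost without them. The difference of ASMM10P045911 was 0.48 without vehicle replicate 2. That of ASMM10P045935 was 0.55 without vehicle replicate 1, and 0.56 without vehicle replicate 2, nicotine replicate 1 or nicotine replicate 2.

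All 15 of these probes had every nicotine array above every vehicle array, and no other compared probe of the run did. Over all compared probes the same separation was found in 4.68%, and a rise of 1.5-fold or more in 3.98%. The run was chosen on this contrast, so nothing is read from these shares. The range over the 3 nicotine arrays had a median of 0.40 over the 15 probes and reached 0.80 at most. Over the 3 vehicle arrays the range was wider, with a median of 1.37 in the nicotine-only probes, where it is that of undetected signals, and from 0.38 to 2.32 in the other 5 probes. In ASMM10P045911 the vehicle arrays, at -1.62 to -0.29, were further apart than the group means, which differed by 0.84.

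Each slide held both groups, so the rise could be read within each. On slide 1, with 2 arrays a group, the bounds of the 10 nicotine-only probes ran from 1.64 to 7.56 on the log2 scale. On slide 2, with 1 array a group and no replicate check, they ran from 0.02 to 6.20. The 10 were chosen for being detected in nicotine offspring alone on both slides, so their direction on each slide is no independent result, and the low end on slide 2, ASMM10P045965, was at the limit of what that slide resolved. For the 2 probes detected on all 6 arrays the difference was 1.01 on slide 1 and 0.50 on slide 2 for ASMM10P045911, and 0.69 and 0.47 for ASMM10P045935.

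The 15 probes did not form an unbroken series of numbers. They lay between ASMM10P045911 and ASMM10P046001. The 10 nicotine-only probes ran from ASMM10P045914 to ASMM10P045993, a stretch that held 73 probes, of which 30 were compared, 17 of them with a difference under 1.5-fold, and 43 were not compared. Rising, steady and uncompared probes were thus interleaved. Pairs with adjacent numbers did occur among the nicotine-only probes, ASMM10P045969 with ASMM10P045970 and ASMM10P045975 with ASMM10P045976.

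The 47 probes between the thresholds had differences from -0.52 to 0.51 and mean signals from -3.33 to 7.28. The 5 members with the highest mean signal were all among them. ASMM10P045879 read 7.12, 7.91 and 7.17 in vehicle offspring and 7.14, 7.17 and 7.20 in nicotine offspring. ASMM10P045908 read 5.66, 5.73 and 5.79 in vehicle offspring and 5.76, 5.47 and 5.71 in nicotine offspring. ASMM10P045883 read 5.32, 5.85 and 5.47 in vehicle offspring and 5.56, 5.07 and 5.28 in nicotine offspring. The groups overlapped in each of the 3. ASMM10P045963, whose number falls between those of nicotine-only probes, averaged 3.73 ± 0.22 (SD, n = 3) with vehicle and 3.94 ± 0.14 (SD, n = 3) with nicotine, with overlap. ASMM10P045958 followed the slide instead, with 2.74 and 2.48 on slide 2 and 3.98 to 5.57 on slide 1.

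The single probe 1.5-fold or more lower in nicotine offspring was ASMM10P045967, at -0.79, -1.09 and -1.15 in vehicle offspring and -2.06, -1.31 and -1.52 in nicotine offspring. Its difference of -0.62 was just past the threshold, without overlap between the groups. It was under 1.5-fold without vehicle replicate 1 (-0.51), without nicotine replicate 1 (-0.41) and on slide 1 alone (-0.48). Over all compared probes 3.31% were 1.5-fold or more lower. Vehicle arrays also lay above all nicotine arrays in ASMM10P045906, which averaged 1.35 ± 0.22 (SD, n = 3) with vehicle and 0.93 ± 0.14 (SD, n = 3) with nicotine. The next largest falls were -0.52 in ASMM10P045889, -0.49 in ASMM10P045996 and -0.48 in ASMM10P045948, and in each of these the groups overlapped. Without vehicle replicate 3, 5 compared probes of the run were 1.5-fold or more lower, and without nicotine replicate 1 it was 4, so the count of falls rests on single arrays, as it does for each of the other arrays left out (2 or 3).

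Of the 66 probes that were not compared, 43 were detected on no array and read between -6.58 and -2.91, with the higher of these values on slide 2. The other 23 were detected on 1 to 4 arrays, all of slide 1. They were not all dim: ASMM10P045928, named after its values were seen, read -1.16 to -0.65 on slide 1 and was undetected on slide 2. Of the 66, 3 (4.55%) were detected in nicotine replicates 2 and 3 and in no vehicle sample. Among all 30718 uncompared probes of the array, 1.30% were detected on 2 nicotine arrays and on no vehicle array. ASMM10P045991 read -2.66, -1.98 and -2.66 in nicotine offspring and -6.23, -6.40 and -4.83 in vehicle offspring. ASMM10P045925 averaged -3.20 ± 0.26 (SD, n = 3) in nicotine offspring and read -5.58, -6.39 and -4.93 in vehicle offspring. In these 2 every nicotine array was above every vehicle array, while ASMM10P045994, at -4.64, -3.62 and -3.21 in nicotine offspring and -4.48, -4.28 and -4.93 in vehicle offspring, overlapped. A further 4 (6.06%) were detected on a single nicotine array alone, against 5.37% over the array, and 1 (1.52%) on a single vehicle array alone, against 3.91%.

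The slide is a measure by which the run was not chosen, and here a test applies. With group and slide in the limma fit, 16 of the 63 compared probes (25.4%) differed between the slides at an adjusted p under 0.05, against 27.2% of all compared probes, so the run moved with the slide about as often as the array did. Of these 16, 11 were lower and 5 higher on slide 2. Of the 63, 16 were not detected on all 6 arrays, 13 of the rising probes among them, and for such probes the slide difference includes that of the floor. Among probes detected on all 6 arrays, fitted on their own, 14 of the 47 differed between the slides, against 28.6% of all probes so detected. The largest fall on slide 2, 2.30 on the log2 scale, was in ASMM10P045948 (slide 2 minus slide 1 -2.30, standard error 0.28, adjusted p = 0.0035 from limma), which read 1.09, 1.93, 0.73 and 0.88 on the 4 arrays of slide 1 and -1.13 and -1.15 on slide 2. The largest rise was in ASMM10P045996 (1.96, standard error 0.37, adjusted p = 0.0133 from limma), which read 0.90 and 0.80 on slide 2 and -2.11 to -0.74 on slide 1. ASMM10P045904 was at 0.50 to 0.78 on slide 1 and at -0.97 and -1.03 on slide 2 (-1.62, standard error 0.14, adjusted p = 0.0016 from limma). ASMM10P045904 was picked after its values were seen. Slide 2 was 2 arrays: without vehicle replicate 3, 2 probes of the run were past this threshold, and without nicotine replicate 1, 8 were. The slide and the animals on it cannot be told apart.

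Single arrays of slide 1 were also set against the rest of that slide. Of the 47 probes of the run with a group difference under 1.5-fold, 10 (21.3%) were 1.5-fold or more away in vehicle replicate 2 from each of the other 3 arrays of slide 1, against 15.9% of such probes over the array. The same count was 1 for vehicle replicate 1, 0 for nicotine replicate 2 and 3 for nicotine replicate 3, and over the array these shares were 1.21%, 0.736% and 0.979%. Without vehicle replicate 2, 14 probes of the run were 1.5-fold or more higher in nicotine offspring. The nicotine-only probes, counted anew over all 129 probes, numbered 13 without nicotine replicate 1 and 10 without any one of the other arrays.

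The probes just outside and just inside the run did not differ between groups by 1.5-fold. Just below its start, the nearest compared probe, ASMM10P045874, averaged -0.85 ± 0.59 (SD, n = 3) with vehicle and -1.06 ± 0.23 (SD, n = 3) with nicotine. The first probe inside, ASMM10P045876, was at 0.44 ± 0.66 (SD, n = 3) and 0.29 ± 0.46 (SD, n = 3). The last inside, ASMM10P046014, was at -1.19 ± 0.35 (SD, n = 3) and -1.21 ± 0.49 (SD, n = 3), and ASMM10P046015, just outside, at 2.59 ± 0.48 (SD, n = 3) and 2.59 ± 0.56 (SD, n = 3). The rising probes thus began and ended well inside both limits, and the limits themselves pass through steady probes.

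The 3 blocks of the same width in probe numbers on each side of the run held 829 probes, of which 393 were compared. In these 6 blocks 15 probes (3.82%) were 1.5-fold or more higher in nicotine offspring, 1 to 4 in a block, against 15 of 63 in the run. Of the 393, 0 were nicotine-only. The largest rise in a neighbouring block was 1.78 on the log2 scale, in the block that starts at ASMM10P046293, and the largest fall was -1.15, in the block that starts at ASMM10P046015. Lower probes numbered 1 to 4 in each neighbouring block and 1 in the run. The share of probes that could be compared was similar, 48.8% in the run and 40.6% to 59.7% in the neighbouring blocks. The count of 15 in the neighbouring blocks moved with single arrays, to 32 without vehicle replicate 3, 25 without vehicle replicate 1 and 23 without nicotine replicate 1 or replicate 3.

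Consecutive probe numbers were not neighbours on the glass. Probes of the run lay in rows 1 to 381 of 384 and columns 1 to 163 of 164, and the 15 rising probes in rows 23 to 380 and columns 1 to 121. The closest pair of rising probes was 192 scanner pixels apart, against a median of 12.2 pixels from a rising probe to its 6 nearest spots. None of these nearest spots belonged to the run. Of the 51 compared probes among them, 0 were 1.5-fold or more higher in nicotine offspring, where the share over the array was 3.98%, and their median difference was -0.01 on the log2 scale. A count this small is too few to set the spots around the rising probes apart from the array.

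Outside the run, 5 nicotine-only probes are given, taken by the size of the measured difference, which is set against undetected vehicle signals and so gives no order of fold changes. ASMM10P007279 read -0.22, -0.59 and -0.26 in nicotine offspring and -6.26, -6.32 and -4.91 in vehicle offspring, at least 9.27-fold higher. ASMM10P053755 read -0.84, -1.44 and -1.68 in nicotine offspring and -6.12, -6.34 and -4.93 in vehicle offspring, at least 4.74-fold higher. These 2 shared with the nicotine-only probes of the run a vehicle signal at the floor. Every nicotine array lay above every vehicle array in both, and also in ASMM10P002734 and ASMM10P020137. The bounds of ASMM10P002734, ASMM10P033752 and ASMM10P020137, were 3.24-fold, 1.32-fold and 1.36-fold. The 14 reference probes that were compared, which target commonly used normalization genes, had differences from -0.56 to 0.24.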

How the data were processed

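Each hippocampal RNA was put on its own 1-colour Agilent array. The authors deposited intensity values of each spot from Agilent Feature Extraction 11.0.1.1, with background subtracted within the array and no scaling between arrays, and a table of processed log2 values normalized in GeneSpring GX. The scheme behind that table is not given in the sources used here, and it was used as an alternative.

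The log2 intensity minus the array's 75th percentile over non-control spots was computed. Positive and negative controls were left out, as were 21 to 46 outlier spots per array. Spots of a probe were averaged. Probes that the scanner software marked as well above background (called detected) throughout one group or both, with a value on all 6 arrays, were compared (30197 of 60915) with limma 3.58.1 in R 4.3.3, by group, and by slide with group in the model. Benjamini-Hochberg adjustment covered all compared probes. The fits were tested on simulated data. A bound sets the mean of the nicotine arrays against, on each vehicle array, the higher of the probe's own signal and the lowest signal well above background. Some undetected spots read above that lowest signal, so it is no strict detection limit, and the bounds hold by this definition.

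Slides were read from the scanner files. The 3 arrays per group limit the precision. Alternatives were other normalizations (normexp on median pixel signals, with an offset of 50, among them), filters and folds, slide and replicate number as blocks, each slide alone, and single arrays left out. Named probes were those detected throughout one group alone, the 10 largest measured rises and 5 largest falls, those at the ends of the run, the 5 with the highest mean signal, and the 5 largest measured nicotine-only rises outside; others are named as such. The members and lists were chosen with earlier results of these data known. Tests of marker genes are not reported here.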

Additional observations from a re-analysis of the deposited data

Results flagged for a closer look

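3 probes of the run fell outside the comparison, because nicotine replicate 1 did not detect them, yet both nicotine arrays of slide 1 did and no vehicle array did. They are given here as a signal in data that the comparison left out. In ASMM10P045991 and ASMM10P045925 every nicotine array was above every vehicle array, while in ASMM10P045994 nicotine replicate 1 lay below vehicle replicates 1 and 2. Their measured differences, nicotine minus vehicle on the log2 scale, were 3.39 in ASMM10P045991, 2.43 in ASMM10P045925 and 0.74 in ASMM10P045994. These are set against undetected vehicle signals and include an undetected nicotine array, so they are neither fold changes nor bounds. The 3 probes are 4.55% of the uncompared probes of the run, and 1.30% of the uncompared probes of the array had this pattern. The lowest signal of a detected probe on nicotine replicate 1, on slide 2, was -2.75. This array read -2.66 in ASMM10P045991, where its spot was not marked as detected, -3.12 in ASMM10P045925 and -4.64 in ASMM10P045994. An undetected spot can thus read above the lowest detected signal.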

How the results depend on the processing

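With detection counted anew on the arrays left, the 10 nicotine-only probes became 13 on slide 1 alone and without nicotine replicate 1, 10 without any one of the other arrays, and 15 on slide 2 alone, where it rests on 1 array per group. These settings were added after seeing the data. Among the 63 compared probes, held fixed, the count was 10 in each but slide 2 alone. The other counts with fewer arrays also keep the 63 fixed. The other counts moved where a filter or threshold changed which probes enter. Among probes detected on all 6 arrays, 2 were 1.5-fold or more higher and 2 had every nicotine array above every vehicle array, since this filter removes probes at the floor by construction. Without a filter, 24 probes of the run were higher and 6 lower, 61 differed between slides, and 33 of the neighbouring blocks were higher. Without normalization between arrays, 0 were lower, 44 differed between slides and 24 neighbouring probes were higher. With normexp, 0 were lower and 7 neighbouring probes were higher, and the differences of 11 of the 15 rising probes were less than 50% of those reported. Over all 15 the differences ran from 0.40 in ASMM10P045935, which was then under 1.5-fold, to 5.59 in ASMM10P045914. At 2-fold, 0 were lower and 3 neighbouring probes were higher. On slide 1 alone, 3 were lower and 23 had the groups apart with nicotine above, and on slide 2 alone 40 did, since fewer arrays must separate. On slide 2, with 1 array a group, nicotine lies either above or below vehicle in each probe. The shares over the array under these alternatives are not given, so these counts are not read as results about the run. The same holds for the counts with single arrays left out. Beyond the filters, the cause of these shifts in the counts was not tested.

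With single arrays left out, the higher probes numbered 14 to 19, the lower 2 to 5, those with every nicotine array above every vehicle array 16 to 19, those that differed between slides 2 (without vehicle replicate 3) to 23 (without vehicle replicate 2), and higher neighbouring probes 17 to 32. The difference of ASMM10P045948 turned to 0.17 without vehicle replicate 2 and to 0.17 without nicotine replicate 1, with -1.36 as its lowest value, and that of ASMM10P045996 to 0.07 without vehicle replicate 3 and to 0.22 without nicotine replicate 3, with -1.24 as its lowest. The median difference of the run, 0.06, ran from 0.02 to 0.18 with single arrays left out. Over all alternatives its lowest value was -0.09, among probes detected on all 6 arrays. Replicate numbers did not pair the arrays (correlations of deviations -0.64, 0.45 and -0.69), and a replicate block, with which 15 probes were higher and 1 lower, leaves every difference as it was by construction. Counts by p between the groups are not given, since the run was chosen on that contrast. Signals near the floor limit what slide 2 resolves.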
